A study of Mus musculus with 8 samples.

Results

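The Sox genes encode transcription factors that share a DNA-binding HMG box and are sorted into subgroups by the likeness of that box. The present results describe 10 of them in signals read in cultured mouse hepatoblasts, the bipotent fetal liver precursors of hepatocytes and bile duct cells. These genes, Sox17, Sox7, Sox18, Sox9, Sox4, Sox11, Sox12, Sox5, Sox6 and Sox13, were chosen by name. Every probe set that the array annotation gives to 1 of these symbols was taken, which made 37 of the 45101 probe sets, and each was read separately. A probe set is a group of short probes whose pooled signal reports 1 transcript or several.

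The study measured gene expression on 8 Affymetrix mouse arrays, 4 labelled Bmi1 and 4 labelled control, numbered 1 to 4 in each group. All cells were Dlk-positive hepatoblasts sorted with magnetic beads from Ink4a-Arf-null embryonic livers of day 14.5, so both groups lack the Ink4a-Arf locus. After 12 to 18 h they were transduced with Bmi1, a subunit of Polycomb repressive complex 1, in one group and with EGFP in the other, and were grown on type IV collagen with 50 ng/ml of HGF and 20 ng/ml of EGF. Flow cytometry purified the transduced cells on day 28. RNA equal to 10000 cells was amplified in a 2-cycle protocol, and the series describes 4 independent experiments. The comparison asks what forced Bmi1 does to these genes where the best known Bmi1 target locus is missing.

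In background, the SoxF genes Sox17, Sox7 and Sox18 act in endoderm and in blood and lymphatic vessels, and in the mouse Sox17 is needed for the gall bladder and the extrahepatic bile ducts. The SoxE gene Sox9 marks bile duct cells and their precursors, and in the mouse liver it shapes the ducts together with the SoxC gene Sox4. Sox4, Sox11 and Sox12 form the SoxC subgroup, widely expressed in embryonic progenitor cells. Sox5, Sox6 and Sox13 form the SoxD subgroup, which lacks a transactivation domain and is known for its role beside Sox9 in cartilage. Promoters of developmental regulators with many CpG dinucleotides are typical sites of Polycomb binding in embryonic cells.

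The signal of the introduced gene went against the labels. The Bmi1 probe set 1417493_at read 279 ± 60.0 in the arrays labelled Bmi1 and 518 ± 218 in the arrays labelled control (SD, n = 4 each), lower in 4 of 4 pairs of the same replicate number. With the replicate number as a block it fell in limma (adjusted p = 0.0330), but not without a block (0.806) or with replicates 1 and 2 against 3 and 4 as the block (0.304). The second Bmi1 probe set, 1448733_at, read 100.3 ± 25.4 in the arrays labelled Bmi1 and 216 ± 136 in the arrays labelled control, also lower in 4 of 4 pairs, and did not pass (adjusted p = 0.0969 with the replicate block). Where its probes lie relative to the introduced sequence was not given in the sources used here, and all directions below follow the labels. Of 25 probe sets of 10 hepatoblast genes (Dlk1, Afp, Alb, Ttr, Hnf4a, Foxa2, Krt8, Krt18, Prox1 and Cebpa), 23 were above background on all 8 arrays. An array's background was its 95th percentile over 27 Bacillus control probe sets, and it lay between 4.09 and 9.97 in signal units. The arrays of replicates 1 and 2 stood apart from those of replicates 3 and 4 in both groups. The BioC 3' hybridisation control read 97.0 to 119 in replicates 3 and 4 and 198 to 274 in replicates 1 and 2, and no label names a batch. The ratio of the 3' to the 5' Gapdh probe set was 3.10 on control 1 and 1.65 to 1.96 on the other arrays.

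Detection differed widely among the Sox probe sets. Above background on all 8 arrays were 22 of the 37, 7 more were so on 4 to 7 arrays, and 8 on under 4. Sox4 and Sox11 had 6 each above background on all arrays, both Sox7 probe sets were near background, and Sox17 and Sox18 had none above background on all arrays. Levels are not ranked between genes, because each probe set has its own response. The plot of signal by probe set shows the whole range.

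**Figure D1:**
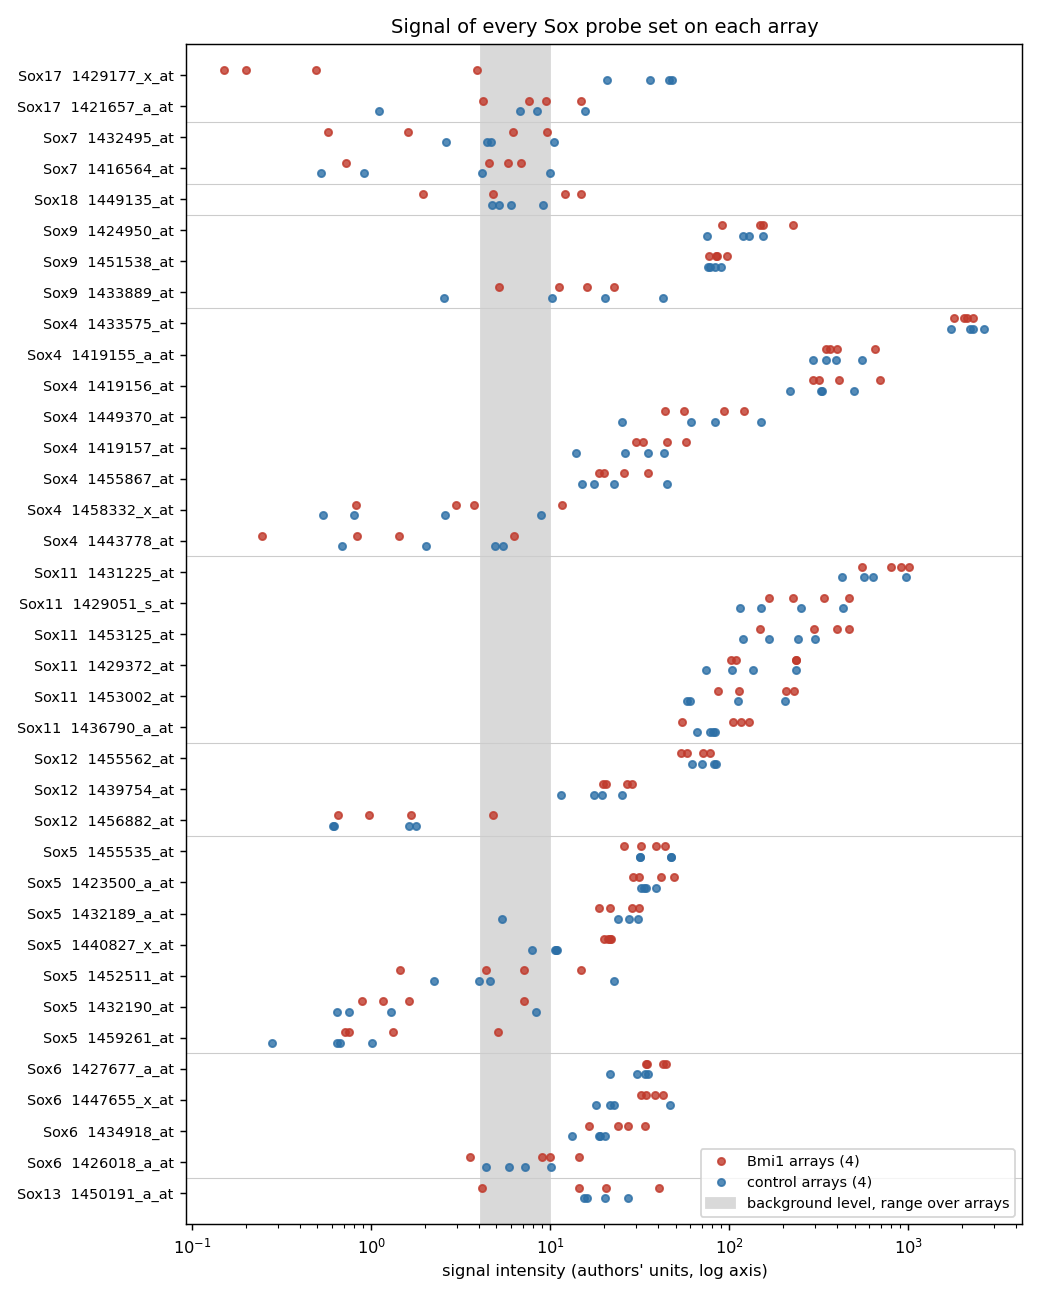
Signal intensity of the 37 Sox probe sets on a log axis, with 1 point per array, the 4 arrays labelled Bmi1 in red above the 4 labelled control in blue, and the range of the background level over arrays in grey. The Sox17 probe set 1429177_x_at is the one whose arrays labelled Bmi1 all lie below background (0.151 to 3.88) while those labelled control lie above it (20.8 to 47.9).

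The promoter windows of the 2 genes with the most detected probe sets are shown, because CpG content bears on Polycomb binding. The sequences are from RefSeq on GRCm38.p6 and run from 250 bases before to 50 bases after the annotated start, on the minus strand, with CG dinucleotides in capitals.
Sox11, chr12:27342669-27342968: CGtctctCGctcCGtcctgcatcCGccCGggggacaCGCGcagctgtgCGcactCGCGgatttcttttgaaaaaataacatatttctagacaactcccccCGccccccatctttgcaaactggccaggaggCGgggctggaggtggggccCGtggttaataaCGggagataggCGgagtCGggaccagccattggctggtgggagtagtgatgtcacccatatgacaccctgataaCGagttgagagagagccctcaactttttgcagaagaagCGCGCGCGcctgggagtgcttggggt
Sox4, chr13:28953650-28953949: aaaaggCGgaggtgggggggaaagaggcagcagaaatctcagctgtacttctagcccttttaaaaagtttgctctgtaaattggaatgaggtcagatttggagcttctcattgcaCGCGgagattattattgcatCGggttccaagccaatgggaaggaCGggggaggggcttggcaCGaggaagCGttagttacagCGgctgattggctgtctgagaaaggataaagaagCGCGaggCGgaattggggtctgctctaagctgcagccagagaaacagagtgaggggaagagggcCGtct

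The Sox11 window holds 21 CpG dinucleotides and the Sox4 window 12, where the median of 32851 promoter windows is 7. Windows of 6 of the 10 genes were matched by symbol, 11 windows in all. None was matched for Sox17, Sox7, Sox18 or Sox9, so these counts do not cover the SoxF genes. Sox12 (47) and Sox13 (40) held more CpG than Sox11, and Sox5 (3) fewer. The Sox6 windows also held fewer, at 11, 13, 2, 2, 4 and 2. Over all windows, 98.6% had fewer CpG than Sox12, 75.2% fewer than Sox11 and 60.4% fewer than Sox4. The Sox binding motif AACAAT, searched on both strands, was in 1 of the 11 windows, a Sox6 window that holds it 2 times, and in 10.7% of all windows. It is in neither window printed above, which says only that these letters are not in those 300 bases.

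Over all 45037 probe sets other than controls, limma without a block called 4 at an adjusted p under 0.05 (0.00888%), and 0 of the 37 Sox probe sets were among them. At an unadjusted p under 0.05 there were 2 Sox probe sets, beside 4.79% of all probe sets. With the replicate number as a block, limma called 333 probe sets (0.739%), 0.426% lower and 0.313% higher in the arrays labelled Bmi1, and 1 of the 37 Sox probe sets, which was lower. The split of the calls depends on the scaling: 141 of the 333 were higher as fitted, 168 of 324 with no centring and 243 of 396 with centring on all probe sets. Of the 37, 25 were higher and 12 lower in the arrays labelled Bmi1, with a median log2 difference of 0.15, where the median of all probe sets was -0.08. Centring the arrays on all probe sets moved that overall median to 0.06. Arrays of the 2 groups did not overlap for 2 Sox probe sets and for 3.36% of all probe sets. These 2 were a Sox17 probe set, lower as were 2.06% of all, and a Sox5 probe set, higher as were 1.3%, and the other 35 differed by at most 0.54 on the log2 scale in either direction.

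**Figure D2:**
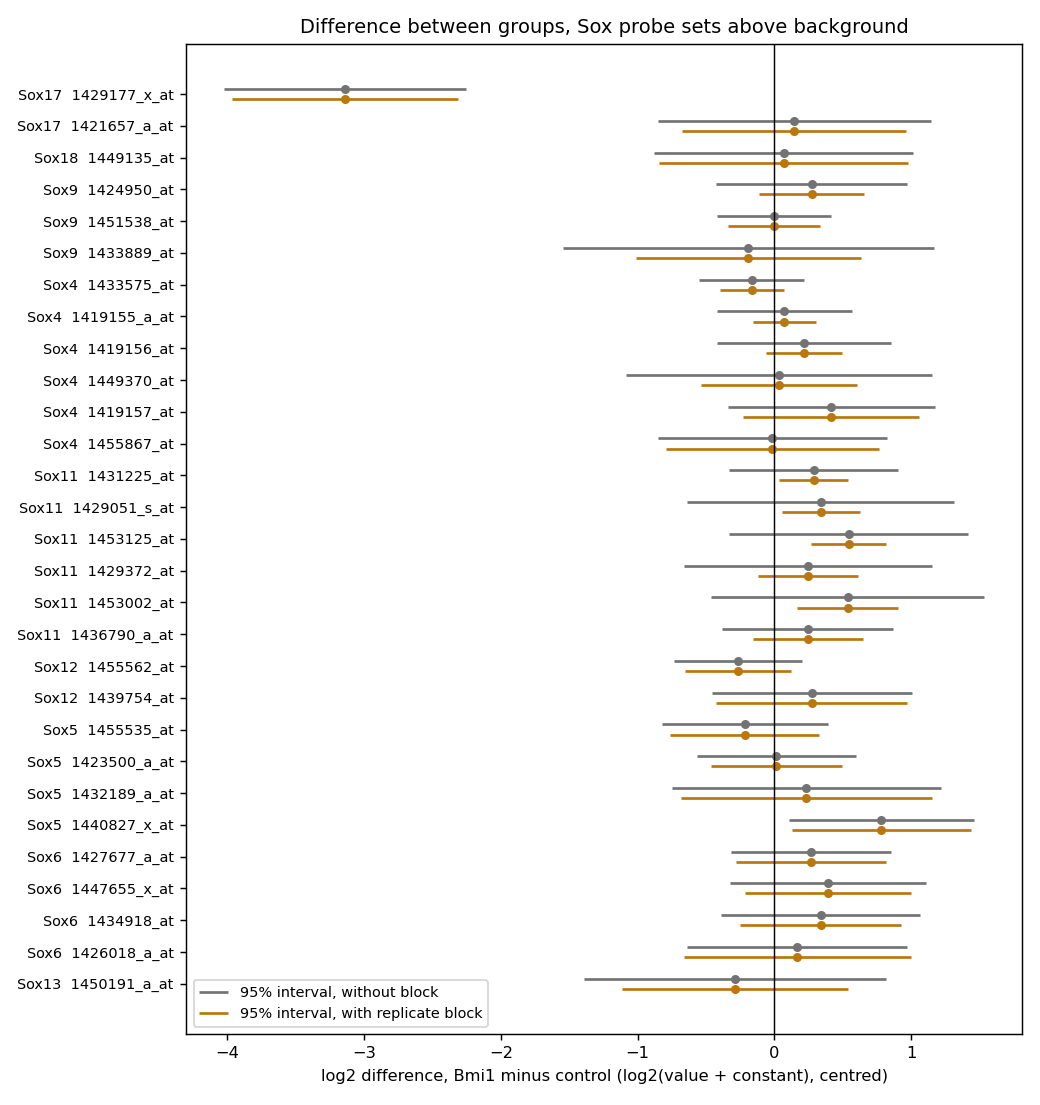
Log2 difference, arrays labelled Bmi1 minus arrays labelled control, for the 29 Sox probe sets above background on 4 or more arrays, with 95% intervals from limma without (grey) and with (orange) the replicate block. The Sox17 probe set 1429177_x_at stands at -3.14, and the others lie between -0.29 and 0.78.

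Among the SoxF genes, 1 probe set passed in limma with the replicate block, and none in the primary fit, which has no block. Sox17 probe set 1429177_x_at read 0.200, 3.88, 0.151 and 0.491 in replicates 1 to 4 labelled Bmi1, and 47.9, 36.2, 45.7 and 20.8 in replicates 1 to 4 labelled control. All 4 arrays labelled Bmi1 were at background and all 4 labelled control were above it, so the groups did not overlap. The mean was 1.18 ± 1.81 in the arrays labelled Bmi1 and 37.7 ± 12.3 in the arrays labelled control (SD, n = 4 each). Because the signal in the arrays labelled Bmi1 has only a bound, it was at least 4.21-fold lower there, taking each array's background in place of lower readings. That bound is on the scale log2(value + 3.78), the constant used throughout, which understates folds of dim probe sets.

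The fitted log2 difference was -3.14 (SE 0.40), and limma's adjusted p was 0.0734 without a block. With the replicate block the probe set fell in limma (SE 0.37, adjusted p = 0.0114). It also passed with replicates 1 and 2 against 3 and 4 as the block, where 0.269% of all probe sets were called. With the probe sets of each gene averaged, 0 of the Sox genes passed. It passed with the probe set of highest mean signal per gene, where 0.0879% of genes were called, but 1429177_x_at is that probe set only through the arrays labelled control, so this pass is no support. The fitted size depends on the constant, from -1.74 with a constant 4 times larger to -4.50 with one 4 times smaller. It was lower in 4 of 4 pairs of the same replicate number, by -3.79, -2.47, -3.74 and -2.55, as were 13.2% of all probe sets. The difference was -3.13 within replicates 1 and 2 and -3.15 within replicates 3 and 4. Without a block, leaving out control 4 brought the adjusted p to 0.0362, and leaving out any other array gave 0.0904 to 0.294. With the block, leaving out replicate 3 gave 0.0715 and leaving out any other replicate 0.0229 to 0.0419. In a bulk sample, fewer cells with the transcript and less of it per cell cannot be told apart.

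The 2 Sox17 probe sets did not move together. The other, 1421657_a_at, read 9.40, 4.23, 7.62 and 14.8 in the arrays labelled Bmi1, and 6.75, 1.11, 15.7 and 8.39 in the arrays labelled control. It was above background on 2 arrays labelled Bmi1 and 3 labelled control, and the groups overlapped. Between the groups it differed by 0.15 on the log2 scale (95% interval -0.85 to 1.14, limma adjusted p = 0.9999). With the replicate block the interval was -0.67 to 0.96. The probe sets are annotated to different transcript accessions. A name ending in _x_at marks probes that may also bind other transcripts, and one ending in _a_at marks probes shared by alternative transcripts of a gene. Probe positions were not given in the sources used here, so which of the 2 reads the Sox17 transcript of these cells cannot be told.

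**Figure D3:**
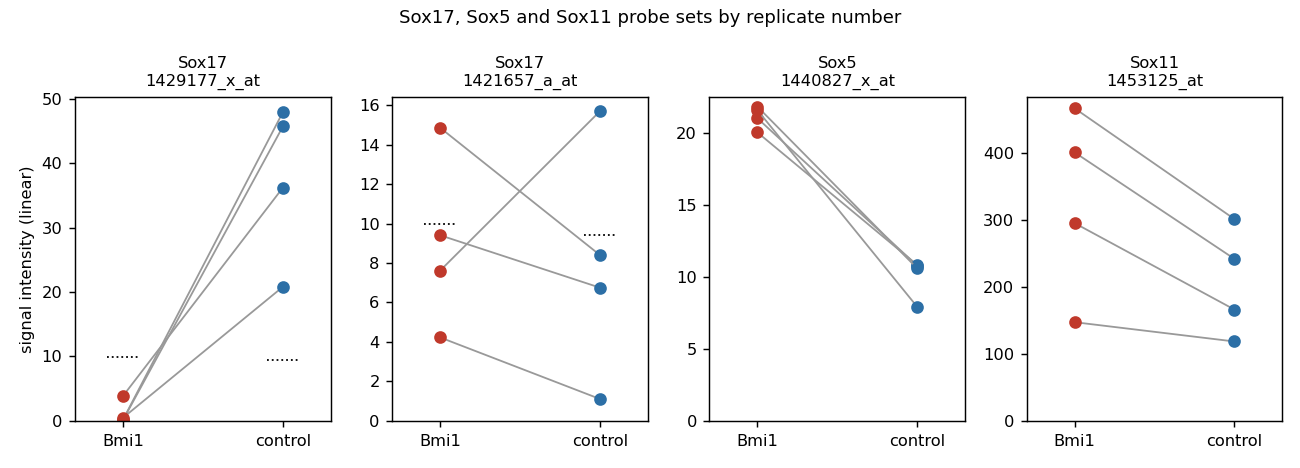
Signal on a linear axis for 2 Sox17, 1 Sox5 and 1 Sox11 probe set, with the arrays labelled Bmi1 at left and those labelled control at right, and lines joining arrays of the same replicate number. Dotted marks in the Sox17 panels give the highest background level in each group; Sox17 1429177_x_at is below it on all 4 arrays labelled Bmi1, while Sox17 1421657_a_at crosses it in both groups.

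Sox7 and Sox18, the other SoxF genes, were at or near background. Sox7 probe set 1416564_at read 0.726 to 6.84 in the arrays labelled Bmi1 and 0.521 to 9.91 in the arrays labelled control, above background on 1 array of each group. The second Sox7 probe set, 1432495_at, read 0.573 to 9.61 in the arrays labelled Bmi1 and 2.63 to 10.5 in the arrays labelled control, again above background on 1 array of each group. Sox18 read 14.7, 12.0, 4.75 and 1.94 in the arrays labelled Bmi1, and 6.05, 5.19, 4.74 and 9.08 in the arrays labelled control. It was above background on 3 arrays labelled Bmi1 and 1 labelled control, with a log2 difference of 0.07 (95% interval -0.88 to 1.01). That difference was 0.77 within replicates 1 and 2 and -0.64 within replicates 3 and 4, so its direction was not the same in both. SoxF genes are also vessel genes, and of 46 endothelial probe sets 28 were above background on 4 or more arrays and 18 on all 8. These 46 belong to 25 genes, of which 16 had a probe set above background on 4 or more arrays. Of 5 of the 25 genes that were looked at singly, Pecam1, Tek and Tie1 were above background on 0 of 8 arrays. Each of the 2 Cdh5 probe sets was above background on 2 arrays. Kdr was above it on all 8, at 8.22 to 16.1 in the arrays labelled Bmi1 and 11.6 to 43.6 in the arrays labelled control.

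Sox9, the biliary SoxE gene, had 2 probe sets above background on all arrays, annotated to 1 accession. Probe set 1424950_at read 228, 153, 148 and 90.4 in the arrays labelled Bmi1, and 118, 154, 128 and 74.5 in the arrays labelled control. The groups overlapped, and the difference of 0.27 (log2, SE 0.32) did not pass in limma, at adjusted p values of 0.9999 (no block) and 0.622 (replicate block). Probe set 1451538_at read 77.1 to 96.9 in the arrays labelled Bmi1 and 75.6 to 89.3 in the arrays labelled control, with a log2 difference of -0.0020 and an interval of -0.42 to 0.42. With the replicate block the interval ran from -0.34 to 0.33. Probe set 1433889_at, above background on 6 arrays, read 5.15 to 22.7 in the arrays labelled Bmi1 and 2.53 to 42.5 in the arrays labelled control.

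Sox4 passed at none of its 8 probe sets, of which 6 were above background on all arrays. Probe set 1433575_at read 2131, 2035, 2304 and 1799 in the arrays labelled Bmi1, and 2657, 2208, 2290 and 1730 in the arrays labelled control. The groups overlapped and differed by -0.17 on the log2 scale (SE 0.17), with an adjusted p in limma of 0.9999 with no block and 0.623 with the replicate block. The 95% interval with the block was -0.40 to 0.07. The 4 probe sets annotated to 1 accession gave differences of 0.07, 0.22, 0.04 and 0.42. Probe set 1419156_at, for example, read 315, 292, 695 and 408 in the arrays labelled Bmi1 and 324, 217, 499 and 329 in the arrays labelled control, highest in replicate 3 of both groups. Of the other Sox4 probe sets, 1455867_at differed by -0.01, and 1458332_x_at and 1443778_at were above background on 1 array each. Pearson's r between the 6 Sox4 probe sets above background on all arrays ran from -0.68 to 0.84 over the 8 arrays (median -0.08, a description).

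Sox11, another SoxC gene, was higher in the arrays labelled Bmi1 at each of its 6 probe sets, but none passed the threshold. Probe set 1453125_at had the largest difference and read 467, 401, 295 and 147 in the arrays labelled Bmi1, and 301, 242, 166 and 119 in the arrays labelled control. It was higher in 4 of 4 pairs, although the groups overlapped, and limma without the block gave 0.54 on the log2 scale (SE 0.40, adjusted p = 0.9999). With the replicate block the SE was 0.12, the 95% interval 0.27 to 0.82 and limma's adjusted p 0.107. Probe set 1431225_at read 1005, 803, 913 and 547 in the arrays labelled Bmi1 and 965, 564, 636 and 426 in the arrays labelled control. Its difference was 0.29 (adjusted p = 0.413 with the block). The size of these differences depends on single arrays. Leaving out each array in turn gave 0.29 to 0.89 for 1453125_at, 0.04 to 0.72 for 1429051_s_at and 0.08 to 0.53 for 1431225_at. It gave 0.29 to 0.92 for 1453002_at and 0.08 to 0.51 for 1436790_a_at. For 1429372_at the range was -0.022 to 0.57, so its direction was not always kept. The 6 differences ran from 0.24 to 0.54, and 3 of the probe sets were higher in 4 of 4 pairs, as were 6.58% of all probe sets. With the block, 4 of the 6 had an unadjusted p under 0.05, where 3.78% of all probe sets did so in that direction. They are annotated to 1 gene, and 2 pairs of them share an accession each, so they are not separate evidence.

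Sox11 also differed between replicate numbers. The 6 probe sets correlated with each other over the 8 arrays at Pearson's r of 0.67 to 0.98 (median 0.89), a description that includes the difference between replicate numbers. In replicates 3 and 4, probe set 1429051_s_at read 227 and 166 in the arrays labelled Bmi1 and 150.0 and 115 in those labelled control. In replicates 1 and 2 it read 468 and 338 in the arrays labelled Bmi1 and 433 and 249.6 in those labelled control, so replicates 3 and 4 were lower in both groups. In the fit with this split and the group as terms, replicates 3 and 4 were lower than replicates 1 and 2 by -1.26 on the log2 scale (limma adjusted p = 0.00671). Of the 37 Sox probe sets 6 were called in this comparison, all lower in replicates 3 and 4. Of all probe sets 13.3% were called in it and 9.48% were lower. Of the 6, 4 were Sox11 probe sets, with differences of -1.31 to -1.08, and the others were Sox4 1449370_at (-1.33) and Sox9 1433889_at (-1.51). The split was set from the hybridisation controls and is no comparison of the study, and what lies behind it was not tested.

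**Figure D4:**
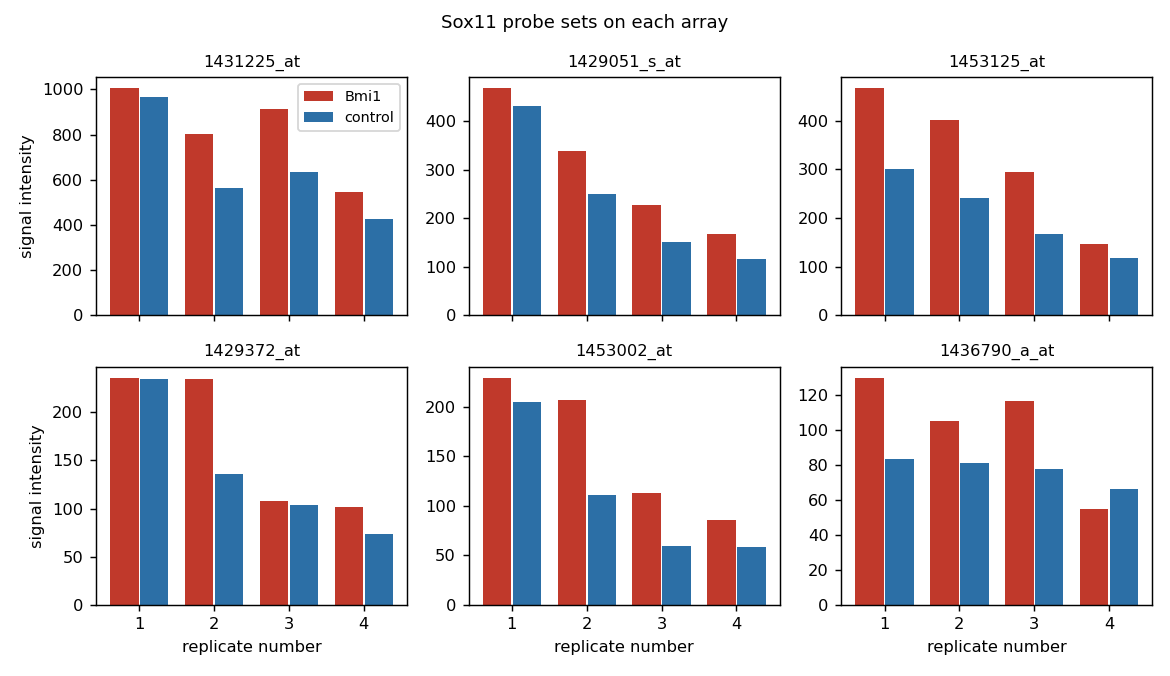
Signal of the 6 Sox11 probe sets by replicate number, arrays labelled Bmi1 in red and arrays labelled control in blue, on a linear axis from 0. In 1453125_at each red bar is above the blue bar of the same number, and in 1429051_s_at the bars of replicates 3 and 4 are lower than those of replicates 1 and 2 in both groups.

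Sox12, the last SoxC gene, had probe sets that differed in direction. Probe set 1455562_at read 53.6, 57.8, 77.8 and 71.5 in the arrays labelled Bmi1, and 61.8, 84.5, 81.9 and 70.4 in the arrays labelled control. It was lower in 4 of 4 pairs by the centred values, by only -0.01 in replicate 4, and differed by -0.26 on the log2 scale (SE 0.21, adjusted p = 0.638 in limma with the block). Probe set 1439754_at read 19.8 to 28.7 in the arrays labelled Bmi1 and 11.4 to 25.2 in the arrays labelled control (0.27, SE 0.33). It differed by -0.21 within replicates 1 and 2 and by 0.75 within replicates 3 and 4. The remaining one was at background on all 8 arrays.

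Among the SoxD genes, Sox5 had the one other probe set whose groups did not overlap. Probe set 1440827_x_at read 21.0, 20.1, 21.8 and 21.6 in the arrays labelled Bmi1, and 10.8, 10.8, 10.6 and 7.92 in the arrays labelled control. Both groups were above background on all arrays and the spread within each was small, at 21.1 ± 0.796 in the arrays labelled Bmi1 and 10.03 ± 1.41 in the arrays labelled control (SD, n = 4 each). The log2 difference was 0.78 (SE 0.31), and in limma its adjusted p was 0.944 with no block and 0.377 with the replicate block. It was 0.65 within replicates 1 and 2 and 0.92 within replicates 3 and 4.

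The other Sox5 probe sets had smaller differences. Probe set 1455535_at read 25.8 to 43.9 in the arrays labelled Bmi1 and 31.6 to 46.9 in the arrays labelled control (-0.22, 95% interval -0.82 to 0.39). Probe set 1423500_a_at read 28.8 to 48.7 in the arrays labelled Bmi1 and 31.9 to 39.1 in the arrays labelled control (0.01, interval -0.57 to 0.59). Probe set 1432189_a_at read 18.6 to 31.5 in the arrays labelled Bmi1 and 5.36 to 30.9 in the arrays labelled control. Its interval, -0.75 to 1.22 around 0.23, includes the difference of 1440827_x_at (0.78). The intervals of 1455535_at and 1423500_a_at, both above background on all 8 arrays, do not include it. The remaining 3 Sox5 probe sets were above background on 3, 2 and 0 arrays.

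Sox6, another SoxD gene, was higher in the arrays labelled Bmi1 at all 4 probe sets, by 0.17 to 0.39 on the log2 scale, with none past the threshold. Probe set 1434918_at read 27.1, 33.9, 23.8 and 16.4 in the arrays labelled Bmi1, and 19.0, 20.1, 18.7 and 13.2 in the arrays labelled control, higher in 4 of 4 pairs (0.34, SE 0.33, adjusted p = 0.695 in limma with the block). Probe set 1427677_a_at read 34.3 to 44.1 in the arrays labelled Bmi1 and 21.4 to 35.3 in the arrays labelled control (0.27, SE 0.27). Sox13 had 1 probe set, which read 40.3, 14.5, 20.4 and 4.13 in the arrays labelled Bmi1, and 20.2, 16.1, 27.0 and 15.4 in the arrays labelled control. The spread was wide in the arrays labelled Bmi1, and the difference was -0.29 (95% interval -1.39 to 0.81).

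The 10 other Sox family genes on a list (Sry, Sox1, Sox2, Sox3, Sox8, Sox10, Sox14, Sox15, Sox21 and Sox30) were mostly undetected, with 4 of 16 probe sets above background on 4 or more arrays. None passed with or without the block, and their median log2 difference was 0.04. Sox15 had the smallest p and read 5.88, 9.83, 4.50 and 7.24 in the arrays labelled Bmi1, and 4.89, 0.592, 0.526 and 3.05 in the arrays labelled control (0.78, SE 0.34, adjusted p in limma 0.9999 with no block and 0.441 with the replicate block). Sox10, a SoxE gene of neural crest and glia, was chosen after its values were seen. Its probe set 1424985_a_at read 26.9, 25.9, 19.1 and 29.0 in the arrays labelled Bmi1, and 13.0, 16.6, 16.7 and 9.28 in the arrays labelled control. The log2 difference of 0.65 (SE 0.33) did not pass in limma (adjusted p = 0.9999 with no block and 0.503 with the replicate block). The 2 other Sox10 probe sets were above background on 3 and 0 arrays.

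Lists of genes that work with the Sox factors, or that mark other cell types, gave few calls. Over the 12 lists other than hepatoblast genes, 0 of 271 probe sets passed in limma without the block. At an unadjusted p under 0.05 there were 28 of the 271, a larger share than the 4.79% of all probe sets. With the replicate block 4 of the 271 rose, a larger share than the 0.313% of all probe sets. None fell, where 0.426% of all probe sets did. The lists were chosen with earlier results of these data known, so these shares are a description only. Of 23 biliary probe sets 16 were higher, with a median log2 difference of 0.09. The epithelial surface gene Epcam rose with the block (293 ± 93.0 in the arrays labelled Bmi1 and 135 ± 26.1 in the arrays labelled control, limma adjusted p = 0.0302, and 0.367 without). Of 20 probe sets of cartilage genes, known targets of Sox9, Sox5 and Sox6, 9 were higher and 11 lower (median -0.14). Only 7 of the 20 were above background on 4 or more arrays and 1 on all 8, so most of these directions are of readings near background. The signal summed over this list ran from 96.0 to 231 in the arrays labelled Bmi1 and from 89.3 to 1869 in the arrays labelled control. Of these probe sets 1 rose with the block. This was Col2a1 1450567_a_at, the type II collagen of cartilage, at 20.8, 17.9, 52.2 and 11.2 in the arrays labelled Bmi1 and 1.03, 2.83, 1.21 and 1.41 in the arrays labelled control (limma adjusted p = 0.0458, and 0.211 without). The arrays labelled control were at background there on all 4.

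No Tcf/Lef and beta-catenin gene passed in 43 probe sets (median 0.05), no endoderm and early liver gene in 30 (median 0.14) and no SoxC-linked gene in 20 (median -0.05). Tcf7l2, an HMG-box partner of beta-catenin, had the smallest p of the first list, at 138 ± 27.1 in the arrays labelled Bmi1 and 82.1 ± 18.3 in the arrays labelled control (0.66, limma adjusted p = 0.0817 with the replicate block and 0.864 without). Eomes, an endoderm T-box gene, had the smallest p of the second (1.31, adjusted p = 0.270 with the block and 0.711 without). Stmn1, a tubulin-binding protein, had it in the SoxC-linked list (0.60, adjusted p = 0.454 with the block and 0.9999 without).

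Marker lists of other cell types were read beside the Sox signals. Of 29 stellate cell and fibroblast probe sets 24 were lower, with a median log2 difference of -0.82. Their summed signal was 1421 to 5408 in the arrays labelled Bmi1 and 1994 to 14130 in the arrays labelled control. All 11 mesothelial probe sets were lower (median -0.64), with summed signals of 72.4 to 323 in the arrays labelled Bmi1 and 199 to 1055 in the arrays labelled control. The stellate median was -0.89 within replicates 1 and 2 and -0.06 within replicates 3 and 4, and the mesothelial median -0.74 and -0.34 in the same order. Of 46 endothelial probe sets 23 were higher and 23 lower (median -0.03), and the vessel gene Egfl7 rose in the blocked fit (0.95, limma adjusted p = 0.0296, and 0.604 in the fit without a block). Reln, a stellate cell gene, rose as well (1.55, limma adjusted p = 0.00658, and 0.723 in the fit without a block). Of 14 macrophage probe sets 12 were lower (median -0.32). Cd5l had the smallest p among them (-1.14) and did not pass (limma adjusted p = 0.320 with the replicate block and 0.767 without). It was above background on 1 array labelled Bmi1 and 3 labelled control. The erythroid and glial lists had medians of 0.06 and -0.16 with none called. The smallest p in the erythroid, glial and mesothelial lists belonged to Epor (0.98), Gfap (0.40, at background on all 8 arrays) and Wt1 (-0.89), which did not pass in either fit. Of the hepatoblast list, 1 of 25 probe sets, Ttr 1451580_a_at, fell in the blocked fit (-0.58, limma adjusted p = 0.0487, and 0.525 in the other). Which part these cells have in the Sox signals was not tested.

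For each gene's brightest probe set, and for each Sox17 probe set, the most similar patterns over the 8 arrays were taken from 22927 named probe sets at or above the 40th percentile of level. Sox7 was left out as near background. Sox17 1429177_x_at was most like the flavin monooxygenase Fmo5 (Pearson's r 0.98), Slc35f5 (0.97) and Tmem47 (0.97). Fmo5 read 41.3 on average in the arrays labelled Bmi1 and 118 in the arrays labelled control and fell in the blocked fit (limma adjusted p = 0.0146, and 0.111 in the other). The 3 genes, like Sox17, were lower in the arrays labelled Bmi1, which the measure rewards. Sox11 was most like Ctbp2 (0.99), Ivns1abp (0.98) and Myo5a (0.98). Sox9 was most like Hmgcs1 (0.98), Becn1 (0.98) and Sav1 (0.98), and Sox4 most like Nck2 (0.98), Lipo3 (0.97) and Vdac3 (0.97). The second Sox17 probe set was most like Ms4a15, and the highest values for Sox18, Sox12, Sox5, Sox6 and Sox13 were with Ppat, Eif4e2, Dnajc25, Kalrn and Taf2, at 0.93 to 0.98. With 8 arrays and so many probe sets compared, such values are a description only.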

How the data were processed

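The deposited values are probe set signal intensities on a linear scale. With 2% trimmed from either end, each array's mean was 100, so the authors' intensities carry a global scaling; their software was not given in the sources used here. The platform annotation names 34945 probe sets with 1 symbol, 932 with several and 9160 not at all; symbols were updated through gene identifiers. Values were taken as log2(value + 3.78), the median of all values divided by 4, and each array was centred on the median of 10916 genes whose level reached the 40th percentile. All 45037 probe sets other than 64 controls were tested in limma 3.58.1 under R 4.3.3, by lmFit and then eBayes with a trend on intensity. Tests were two-sided, Benjamini-Hochberg adjusted and read at 0.05. A difference is Bmi1 minus control by the labels. For arrays, their number limits the precision.

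The fit without a block is the primary one; alternatives changed the scaling, the constant, the filter, the block, the probe set summary or the arrays. Deviations from group means correlated at 0.49 to 0.68 between arrays of the same replicate number and at most 0.48 between others, and the series describes 4 independent experiments, so blocked values stand beside the others. That replicates 1 and 2 differ from 3 and 4 adds to these correlations. The fits were also run on simulated data with independent residuals, and the outcome is not given here. Those data held no difference between replicates 1 and 2 and replicates 3 and 4, so they do not bear on that split. Members, lists and tests were chosen with earlier results of these data known. All member probe sets are reported; from each list the called genes are named, at most 4, or else the one with the smallest p.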

Additional observations from a re-analysis of the deposited data

Results flagged for a closer look

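Dixon's test was run on the centred log2 values of 74 groups of 4 arrays over the 37 Sox probe sets. It picked out a single array in 4, against 3.7 expected by chance. Gaps are shares of the range on that log2 scale, and the readings beside them are in signal units. Sox17 1429177_x_at was highest on Bmi1 2, at 3.88, with a gap of 0.862 of the range, all 4 values being at background. Sox4 1419155_a_at was highest on Bmi1 3, at 649 where the others read 348 to 398 (0.873), and it was also highest on replicate 3 among the arrays labelled control. Sox5 1432189_a_at was lowest on control 3, at 5.36 where the others read 23.9 to 30.9 (0.866). Sox5 1432190_at was highest on control 1, at 8.33 where the others read 0.640 to 1.29 (0.856).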

How the results depend on the processing

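Alternatives with the replicate block beside another scaling, filter or left-out replicate were chosen after seeing the data. They are 8 of the 29 settings counted next for Sox17, the other 21 being planned, and their passes are included in that count. The log2 difference of Sox17 1429177_x_at kept its direction in 29 other settings and passed in 16. All 8 added settings passed except the one that left out replicate 3, while most of the 21 planned ones did not pass. The pooled count therefore leans on settings chosen after seeing the data. In 3 of the 29 the level selects probe sets, and 1429177_x_at passed that selection only through the arrays labelled control. Of the other 26 it passed in 13, a count that also includes added settings. Without the replicate block it passed with no centring (-3.06), centring on all probe sets (-3.005), quantile normalisation (-3.08), the level filter (-3.14), array weights (-3.06), 1 probe set per gene (-3.14) and replicates 1 and 2 against 3 and 4 as a block (-3.14). It ran from -3.39 to -2.98 when each array was left out. With the replicate block it passed as fitted (-3.14), with those 3 scalings (-3.06, -3.005 and -3.08) and with the level filter (-3.14), and was -2.92, -3.36, -2.94 and -3.33 without replicates 1 to 4 in turn. In each setting where it passed, it was the 1 Sox probe set called; where probe sets were averaged per gene 0 Sox genes passed. The other 36 probe sets passed in 0 settings, with a smallest adjusted p of 0.0771. Above background on 4 or more arrays were 29 probe sets, against 32 and 27 with the lower and higher background levels.

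Counts over all probe sets, 4 as fitted, were 7 with no centring, 11 with centring on all probe sets, 8 with quantile normalisation, 7 with the level filter, 21 with array weights, 16 with 1 probe set per gene, 10 with probe sets averaged per gene, 121 with the split of replicate numbers as a block and 0 within replicates 1 and 2 or within 3 and 4, where 2243 and 3189 had an unadjusted p under 0.05. They ran from 0 to 13 when each array was left out. The replicate block gave 333, and with it no centring 324, centring on all probe sets 396, quantile normalisation 302 and the level filter 473, and 158, 80, 70 and 183 without replicates 1 to 4 in turn. The lists around the Sox factors, 0 as fitted, had 4 calls with the replicate block, 1 with the split as a block, and with the replicate block 5 with no centring, 7 with centring on all probe sets, 5 with quantile normalisation, 6 with the level filter and 1 to 3 when each replicate was left out.

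Of 565 values of 28 other Sox probe sets, 516 kept their direction; the reversed ones did not pass. Array weights turned Sox5 1423500_a_at (-0.0074), Sox4 1419155_a_at (-0.088), Sox9 1433889_at (0.11), Sox9 1451538_at (0.0088), Sox18 (-0.043), Sox17 1421657_a_at (-0.21) and Sox4 1455867_at (0.088). Centring on all probe sets, no centring and quantile normalisation turned Sox9 1451538_at (0.13, 0.072 and 0.0097) and Sox4 1455867_at (0.12, 0.059 and 0.038). Within replicates 1 and 2, Sox13 (0.29), Sox5 1432189_a_at (-0.47), Sox12 1439754_at (-0.21), Sox4 1449370_at (-0.16) and Sox6 1426018_a_at (-0.18) turned. Within replicates 3 and 4, Sox18 (-0.64), Sox9 1451538_at (0.041), Sox9 1433889_at (0.24), Sox4 1455867_at (0.058), Sox5 1455535_at (0.033) and Sox17 1421657_a_at (-0.14) turned. When each array was left out, both directions occurred in Sox17 1421657_a_at (-0.21 to 0.43), Sox18 (-0.21 to 0.39), Sox9 1451538_at (-0.045 to 0.056), Sox9 1433889_at (-0.71 to 0.28), Sox4 1419155_a_at (-0.11 to 0.23), Sox4 1419156_at (-0.026 to 0.40), Sox4 1449370_at (-0.42 to 0.44), Sox4 1455867_at (-0.19 to 0.28), Sox11 1429372_at (-0.022 to 0.57), Sox5 1423500_a_at (-0.093 to 0.13), Sox5 1432189_a_at (-0.22 to 0.44) and Sox13 (-0.70 to 0.16).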
